A study of Mus musculus and Bos taurus with 6 samples.

Results

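The lactating mouse mammary gland miRNome held, beside known miRNA, a set of miRNA precursors that miRDeep2 predicted from the reads themselves. All 823 predictions of the deposited mouse list are described here, of 1719 predicted precursors and lines of known miRNA in the mouse data. Of the 823 precursors, 773 were matched by their provisional name to 854 of the 1750 lines of the quantification, namely 772 lines of a mature arm and 82 lines of a star arm. The other 50 precursors had no line of their own, and each of them carried a mature sequence identical to that of a listed precursor. The list contained 771 distinct mature sequences. A provisional name gives the chromosome and a running number, so that 11_6623 lies on chromosome 11.

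The counts came from 4 libraries of FVB/N mice, an inbred strain of unmodified genotype as far as the labels state. All 4 were made from abdominal mammary glands of primiparous mice at day 12 of lactation, without the lymph node. Libraries A5 and A6 were made from total RNA of the gland, and A7 and A8 from RNA co-immunoprecipitated with a monoclonal antibody against Argonaute 2 (AGO2). The methods state that left and right glands were taken from 2 mice. Which mouse gave which library is not given, so gland and AGO2 libraries may share animals. No library from a control antibody was analysed here, and no label tied an AGO2 library to a gland library. The counts summed to 9299807 and 8391916 in A5 and A6 and to 3909166 and 5041406 in A7 and A8. Levels are given in RPM over these sums. A count of 0 was read with a limit of 3 counts, which is 0.323 to 0.767 RPM in these libraries. Limits and intervals cover counting error only, since the reads carried no molecular identifiers.

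A miRNA is cut from a hairpin that folds within a longer transcript. Drosha frees the hairpin in the nucleus and Dicer removes its loop in the cytoplasm, which leaves a duplex of a mature and a star strand. One strand is loaded into an Argonaute protein, where the seed, bases 2 to 8 from the 5′ end, pairs with target mRNA. A genuine hairpin is thus expected to give reads of the mature arm, fewer reads of the star arm and a few of the loop. The miRDeep2 score is the log-odds that a hairpin and its reads come from such processing rather than from other RNA. Fragments of tRNA, snoRNA, snRNA and mRNA fall in the same range of lengths, and their genes can also fold into hairpins.

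The sequences on which the results turn are printed with the seed in capitals. The most counted members are shown first. The predicted 3_28325 and miR-23a-3p shared their seed.
11_6623: uGGUGGGUgcauauguuuu
3_28325: aUCACAUUgacagggauuuu
mmu-miR-23a-3p: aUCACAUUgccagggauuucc
mmu-miR-23b-3p: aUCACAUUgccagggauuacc
2_24638: uCCUCGUUaguauaguggugagu
4_31859: uCCUCGUUaguauaguggu
8_43005: uCUGCAGUaccuagaacu
2_23876: aUCUCGCUggggccucc
17_20313: uCAGGUCCcuguucgggcgcc
15_15267: cCUGGGUGacgcgaucugcccg
11_7098: cUGCCCAGguccaugagcc
7_41166: gCCCAGGUccaugagcc
Members overlapped in these letters, since 4_31859 was contained in 2_24638 and 7_41166 in 11_7098. How reads that suit both members of a pair were counted is not given in the sources used here, so their counts are uncertain.

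The highest scoring members and the mature sequences shared by most precursors are shown because they differ in kind from those above. Capitals again mark the seed.
X_47084 and X_47869: aCUGAGCUgcguuuuacacc
11_5828: cUCUUUCCuuuugcggcc
15_15172: cUGUCUUCcacuccagagcauu
11_5787 and 3 further precursors: uGUUUUUCugagaagauaacauac
5_34227 and 2 further precursors: uUUGUGAUcuuuugugguc
15_14678 and 2 further precursors: aCACCAGCauuggcgaggac
11_6469 and 2 further precursors: gAGGGAACgcagucugagugg

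The predicted hairpins of 3 members show where the mature sequence lay, with the mature sequence in capitals. They belong to 11_6623 at chr11:97797099-97797163 on the plus strand, 3_28325 at chr3:130301422-130301486 on the plus strand and 11_7098 at chr11:6637879-6637981 on the minus strand of GRCm38.
11_6623: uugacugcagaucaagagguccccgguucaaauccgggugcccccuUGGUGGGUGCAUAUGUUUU
3_28325: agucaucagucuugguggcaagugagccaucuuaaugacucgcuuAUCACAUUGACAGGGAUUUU
11_7098: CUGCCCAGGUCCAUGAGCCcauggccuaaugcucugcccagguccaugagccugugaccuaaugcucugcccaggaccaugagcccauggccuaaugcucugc
The hairpin of 11_7098 held its mature sequence in 2 copies and was built of a repeated unit.

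The label of mammary tissue was checked against miRNA markers of cell types. The 5 epithelial markers, miR-200a, miR-200b, miR-200c, miR-141 and miR-205, summed to 155444 and 181734 RPM in the gland libraries and to 334535 and 365137 RPM in the AGO2 libraries. They did not move together, since both AGO2 libraries lay above both gland libraries for miR-200a and miR-141 and below them for miR-200b and miR-200c, and miR-205 overlapped. The 3 contractile and stromal markers summed to 53881 and 70784 RPM in the gland and to 36532 and 34188 RPM with AGO2, where miR-143 was lower and miR-145a and miR-199a overlapped. The 2 endothelial markers, both arms of miR-126a, summed to 24193.5 and 34264.5 RPM in the gland and to 29279.6 and 28818.5 RPM with AGO2. These sums overlapped, since with AGO2 the 3p arm was lower and the 5p arm was higher in both libraries. The 2 erythroid markers, miR-451a and miR-144, lay between 6432 and 31364 RPM and the 5 leukocyte markers between 1263 and 2971 RPM. The 3 skeletal muscle markers were the lowest, from 27.9 to 213 RPM, and 1 of them, miR-206, was at 0 in A6. The other markers were above 0 in every library.

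Most predictions had a low score. Scores ran from 0 to 98.6 with a median of 1.4, and 58 precursors were listed at 0. The list prints 1 decimal, while the methods state that scores above 0 were kept, so it is not known whether these scores were rounded. The class under 1 held 280 precursors (34.0%), the class from 1 to under 5 held 450 (54.7%) and the class of 5 or more held 93 (11.3%). Of the 93 precursors of the highest class, 54 scored under 6 and 31 scored 10 or more.

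Reads behind a prediction were few in each class. The deposited list pools the libraries, and its total per precursor had a median of 28 reads, from 4 to 10925. The medians were 31, 23 and 41 reads in the classes from low to high score. The pooled mature reads equalled the sum over the 4 libraries in 646 of 772 precursors. Among the others, the list held 70 mature reads for 7_41166, 76 for 5_35028 and 547 for 8_43005, fewer than their counts in A7 and A8 together, and 771 for X_46740, more than its counts over all 4 libraries. The reason for such differences was not tested.

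Star reads marked the highest class. At least 1 star read was listed for 91 precursors, namely 11 of the class under 1 (3.93%), 35 of the middle class (7.78%) and 45 of the class of 5 or more (48.4%). All 31 precursors with a score of 10 or more had star reads, between 1 and 24 of them, and the highest score without a star read was 5.7. Star reads are a part of the score, so the order of these shares is not a finding. Loop reads were listed for 63 precursors. The fold of the hairpin was more stable than that of shuffled sequences, by the randfold test in the list, for 81 precursors of the lowest class (28.9%), 331 of the middle class (73.6%) and 66 of the highest class (71.0%). The methods name hairpin stability among the criteria of miRDeep2, so these shares by class are not a finding either.

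The list also gave, for each score, the chance estimated by miRDeep2 that a precursor is a true miRNA. This estimate was 0 ± 0% for the 649 precursors with a score up to 3.9, which made up 78.9% of the list. It was 58 ± 5% for the 81 precursors between 4 and 4.9 and 55 ± 7% for the 54 precursors between 5 and 5.7. Above this it was lower again, and for the 32 precursors that shared an estimate of 13 ± 13% scores ran from 8.3 to 98.6. A higher score thus did not come with a higher estimate over the whole range.

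**Figure D1:**
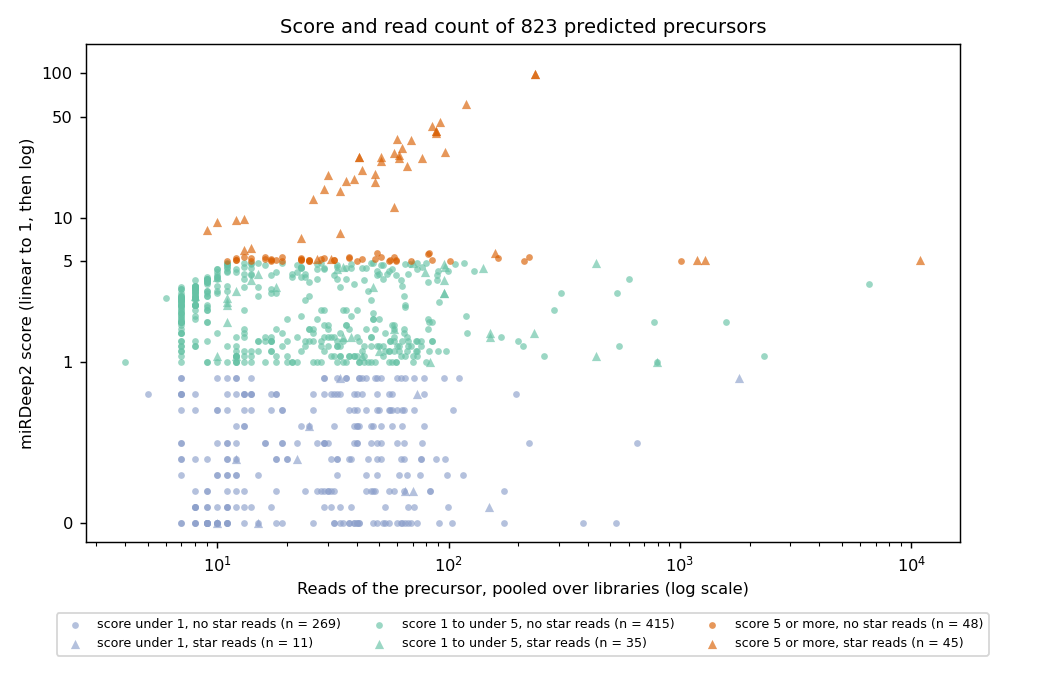
Score against pooled reads of all 823 predicted precursors. The x axis gives reads on a log scale and the y axis the miRDeep2 score, linear up to 1 and on a log scale above it; triangles are precursors with star reads and circles those without. All precursors with a score of 10 or more are triangles, and the 2 at 98.6 share one mature sequence.

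The mature sequences were short. They ran from 17 to 25 bases with a median of 20, and 18 bases was the most common length, with 168 precursors. A length of 17 to 19 bases was found in 336 precursors (40.8%), against 19 of the 896 lines of known miRNA (2.12%). A length of 21 to 23 bases, which is usual for a product of Dicer, was found in 262 precursors (31.8%), against 786 known lines (87.7%). Predicted lengths are those of sequences listed after removal of poly-A stretches, which can shorten a 3′ end. Known lengths are those of miRBase and not of reads in these libraries. The measures are thus unlike, and the part of the trimming in the gap was not tested.

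The highest class of score held somewhat longer sequences. The share of 17 to 19 bases was 42.9%, 40.7% and 35.5% from the lowest to the highest class, the share of 21 to 23 bases was 30%, 30.9% and 41.9%, and the medians were 20, 20 and 21 bases. The median of the known lines was 22 bases. Lengths of precursors that share a sequence are not independent, and these shares are descriptions.

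**Figure D2:**
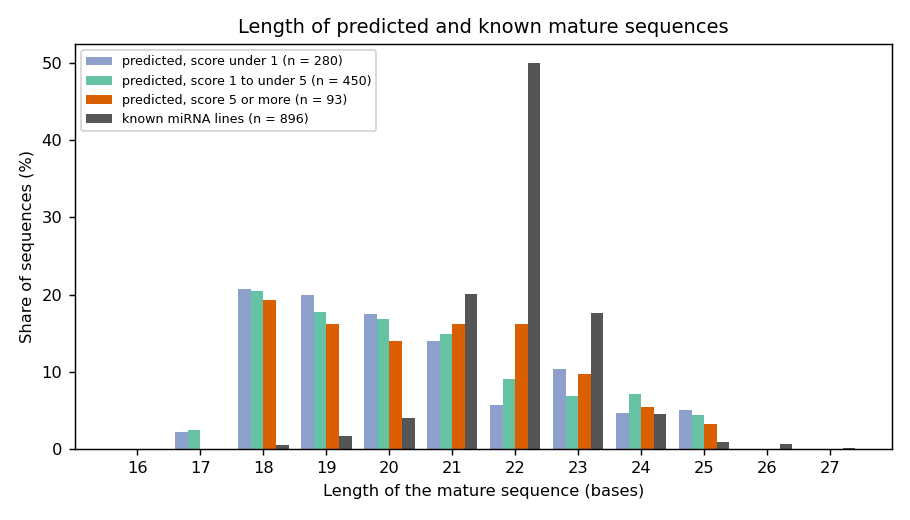
Length of predicted mature sequences by class of score, and of known miRNA. The x axis gives the length in bases and the y axis the share of the sequences of each group in percent. The known lines peak at 22 bases, and each class of predictions has its highest bar at 18 bases. Known lengths come from miRBase, and predicted lengths were taken after removal of poly-A stretches.

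As listed, the hairpins were shorter than known ones and folded less tightly. Their length had a median of 60 bases, from 33 to 103, against 79 bases for 1005 known mouse hairpins of RefSeq, of which 997 were folded. The minimum free energy per 100 bases had a median of -28.8, -33.1 and -35.8 kcal/mol from the lowest to the highest class, and of -40.7 kcal/mol in known hairpins. Stability of the hairpin is among the criteria of miRDeep2, so the order of the classes is not a finding. The mature sequence lay on the 5′ arm in 412 precursors and on the 3′ arm in 411. In the hairpins printed above it reached an end of the hairpin. Whether RefSeq entries are cut at the same place was not checked, so the lengths and energies may cover unlike stretches.

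Few mature sequences ended in a. The libraries were poly(A)-tailed and the authors removed poly-A stretches, so that an a at the 3′ end cannot be told apart from the tail. Only 3 precursors (0.365%) had a mature sequence ending in a, against 20.3% of the known lines, whose ends come from miRBase. In 413 hairpins the base after the mature sequence was known, and it was an a in 180 of them (43.6%). A run of 3 or more u at the 3′ end, as RNA polymerase III leaves at the end of its transcripts, was found in 22 precursors (2.67%) and in 22 known lines (2.46%).

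Seeds were seldom those of known miRNA. Of the 823 precursors, 72 (8.75%) had bases 2 to 8 of a known mouse line. The known lines held 738 of the 16384 possible seeds of this length. The share was 10% in the lowest class, 7.78% in the middle class and 9.68% in the highest.

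The members took a small part of every library. Their counts were 11947 in A5 and 8394 in A6, or 0.128% and 0.100% of the library, and 22998 in A7 and 12645 in A8, or 0.588% and 0.251%. The mean share was 0.114% ± 0.0201 in the gland and 0.420% ± 0.239 with AGO2 (SD, n = 2 each). Both AGO2 libraries lay above both gland libraries, and the difference was 0.305 percentage points (exact permutation test, two-sided, p = 0.333, the smallest p that 2 against 2 libraries allow). Over members with a score of 5 or more the libraries overlapped, at 0.0652% and 0.0489% in the gland and 0.0800% and 0.0474% with AGO2 (exact permutation test, two-sided, p = 1). The gland values of this class rested on 11_6623, which alone had 624 and 454 RPM there and 1.53 and 17.9 RPM with AGO2. The overlap is thus not read as a property of high scores. Fewer cells of a type and less RNA per cell cannot be told apart in such libraries. Sums of the marker lists given above, other than the endothelial one, also differed between both kinds of library. The part of these lists in the difference was not tested.

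The gland libraries concentrated their member counts on few precursors. The 5 most counted precursors held 85.7% of the member counts in A5 and 84.0% in A6, against 14.5% in A7 and 33.3% in A8. Counts were found for 95 and 76 precursors in A5 and A6 and for 456 and 432 in A7 and A8. Of the listed precursors, 112 were counted in at least 1 gland library and 762 (98.6%) in at least 1 AGO2 library.

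Members, with counts summed over both arms, were mostly counted in a single AGO2 library. Of the 773 listed precursors, 319 (41.3%) were counted in A7 alone, 262 (33.9%) in A8 alone and 80 (10.3%) in both AGO2 libraries but not in the gland. A further 101 (13.1%) were counted in the gland and with AGO2, and 11 (1.42%) in the gland alone. In all 4 libraries 25 precursors were counted.

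Those counted in A7 alone were not at the limit of counting. Their counts there ran from 9 to 116 with a median of 38, and 0 of them had star reads. Those counted in A8 alone had 4 to 164 counts with a median of 9. Of the members at 10 RPM or more in A7, 157 of 229 (68.6%) had a count of 0 in A8, where the limit is 0.595 RPM. This held for 2 of 289 known lines (0.692%). In the other direction, 8 of 31 members (25.8%) and 14 of 290 known lines (4.83%) at 10 RPM or more in A8 had a count of 0 in A7.

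The gland libraries shared more of what they counted. The 126 precursors counted in both AGO2 libraries were 27.6% of those in A7 and 29.2% of those in A8, and the 59 in both gland libraries were 62.1% of those in A5 and 77.6% of those in A6. For known lines the shares were 96.6% and 60.2% with AGO2 and 81.9% and 89.3% in the gland. Counts of a precursor were summed over its arms, while a known line is a single arm. In 30 of the 126 precursors the mature arm was counted in A7 and not in A8, and the star arm in A8 and not in A7. For these, A7 and A8 did not count the same arm, which enters the shares and the correlation with AGO2. Over the precursors counted in both, the rank correlation of counts was 0.109 with AGO2 (126 precursors) and 0.854 in the gland (59 precursors). These are descriptions across precursors that were predicted from the same libraries.

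**Figure D3:**
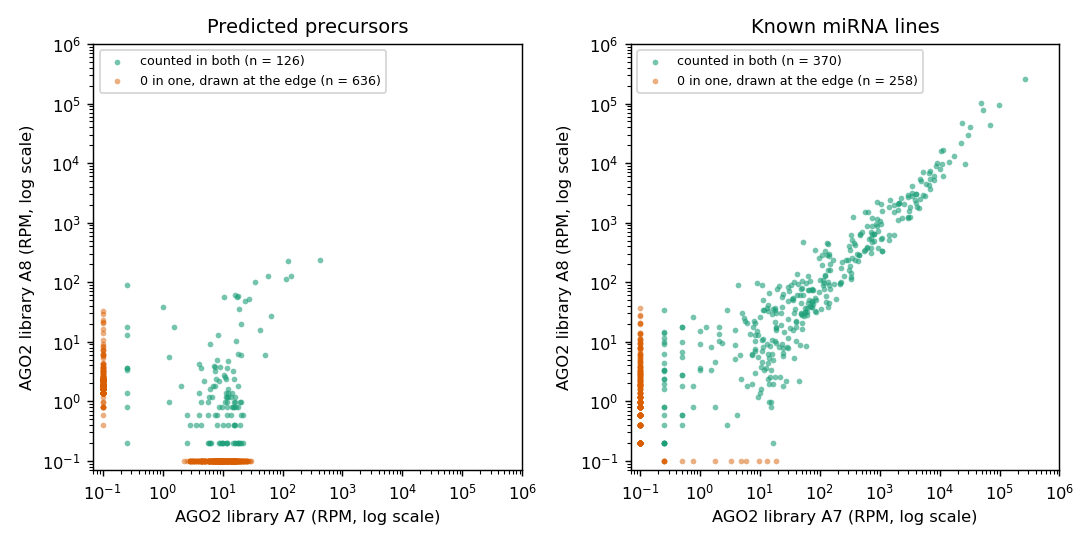
Level of each predicted precursor (left) and each known line (right) in the 2 AGO2 libraries. Both axes are RPM on a log scale, and a count of 0 is drawn at the edge. Of the predicted precursors, with both arms summed, 126 were counted in both libraries and 636 in one only. The known lines follow the diagonal above about 100 RPM.

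A7 also had few low counts among its members. Of the member lines with a count, 96.7% had 10 or more in A7 and 34.2% in A8, and the median count where any was found was 40 in A7 and 8 in A8. In A5 and A6 these medians were 3 and 5. Known lines also had fewer low counts in A7, with 84.9% at 10 or more and a median of 195, against 70.1% and 41 in A8. The paper remarks that the deeper of its AGO2 samples held many reads below 10 counts, which miRDeep2 later dropped. A7 was the library with the smallest total.

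Classes of score were counted unequally in the gland. A gland count was found for 26 of 260 listed precursors under 1 (10%), for 60 of 427 in the middle class (14.1%) and for 26 of 86 at 5 or more (30.2%). Both AGO2 libraries counted 11.5%, 15.5% and 34.9% of these classes. Among these were 15 precursors at 5 or more and 15 under 5 with the mature arm in A7 alone and the star arm in A8 alone of the AGO2 libraries. Arms were summed and star reads are a part of the score, so the order of the gland and AGO2 shares is not a finding. The summed level of the class of 5 or more was 652, 489, 800 and 474 RPM in A5, A6, A7 and A8. That of the class under 1 was 133, 148, 1874 and 405 RPM, with A7 highest. In the class of 5 or more, 11_6623 alone had 624, 454, 1.53 and 17.9 RPM, so the gland values of this class rested on it.

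Mature and star arm of a hairpin were never counted together in A7. Both arms had a line in 81 listed precursors, and 40 of these had no library that counted both. The mature arm was counted in 20, 17, 49 and 46 of the 81 in A5, A6, A7 and A8, and the star arm in 21, 11, 1 and 64. Both arms were counted in 12, 8, 0 and 33 of them. A7 held 2754 mature counts and 1 star count over these precursors, and A8 held 1642 and 287. In 30 of the 81 precursors the mature arm was counted in A7 and not in A8 while the star arm was counted in A8 and not in A7. Among the 81 precursors, 26 had a score of 10 or more, and of these 13 had this pattern and 15 had no library with both arms.

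Known precursors were set beside these by the same count. Of 285 known precursors with 2 lines, both arms were counted in 224 of the 280 with any count in A5 (80.0%), in 210 of 269 in A6 (78.1%), in 106 of 205 in A7 (51.7%) and in 188 of 264 in A8 (71.2%). A7 thus had the lowest share for known precursors as well, at a higher level.

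The precursors lay mostly inside genes and on the strand of the gene. By GRCm38, 386 precursors (46.9%) overlapped an exon of a protein coding gene on the same strand by at least 1 base and 259 (31.5%) lay in an intron on the same strand. The mature sequence lay in coding sequence in 197 of the former and in a UTR in 163. A gene on the same strand alone was found for 653 precursors (79.3%) and on the opposite strand alone for 36 (4.37%). The remaining classes were 32 precursors in snoRNA or scaRNA genes, 25 antisense to an intron, 20 in pseudogenes, 13 antisense to an exon, 9 in lncRNA or other exons, 2 at tRNA genes, 1 each in a known miRNA gene, an snRNA gene and a misc_RNA gene, and 74 outside all of these. Known miRNA genes were ranked before snoRNA genes here, and the precursor so classed also overlapped the snoRNA gene Snora74a.

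Exonic precursors were almost absent from the gland libraries. Of the 369 listed precursors in protein coding exons, 23 (6.23%) had a gland count, and their summed level was 5.81 and 6.32 RPM in A5 and A6 against 2345 and 729 RPM in A7 and A8. Of the 248 listed in introns on the same strand, 28 (11.3%) had a gland count, with 229 and 244 RPM in the gland and 2257 and 626 RPM with AGO2. The gland values of the introns rested on 3_28325, which alone had 189 and 199 RPM there.

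Precursors in snoRNA and scaRNA genes, which guide the modification of rRNA and snRNA, showed another pattern. Of the 26 that were listed, 21 (80.8%) had a gland count, and they were counted in 18, 19, 11 and 26 cases in A5, A6, A7 and A8. Their summed level was 80.8 and 50.4 RPM in the gland and 114 and 145 RPM with AGO2, and their median score was 4.25. They made up 20.8% of the precursors counted in the gland and with AGO2, 1.15% of those counted in A8 alone and 0% of those counted in A7 alone. Exons made up 19.8%, 53.8% and 50.8% of the same sets.

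**Figure D4:**
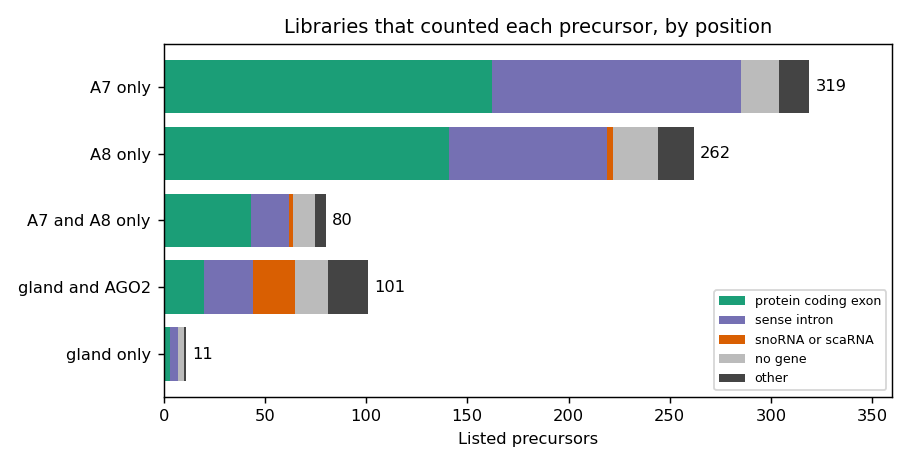
Number of listed precursors by the libraries that counted them, coloured by position. The x axis gives the number of the 773 listed precursors; A7 and A8 are the AGO2 libraries. Exons and introns fill the bars of 319 and 262 precursors counted in a single AGO2 library, and snoRNA or scaRNA genes are found mainly among the 101 counted in both kinds.

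The letters of the mature sequences were also looked up in annotated transcripts. The mature sequence was found in a transcript in sense for 502 precursors (61.0%) and in antisense for 37 (4.50%). The transcript belonged to a gene at the predicted position for 429 precursors, and only to a gene placed elsewhere for 73, of which 3 spanned an exon junction. The sequences matched 541 genes, 515 of them by 1 sequence, 20 by 2 and 6 by 3 or more. These 6 were Csn1s1, Csn2 and Csn1s2a, which encode caseins, Fasn and Scd1, which encode enzymes of fatty acid synthesis and desaturation, and Slc28a3, which encodes a nucleoside transporter.

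Caseins, the main milk proteins, were matched by 11 precursors, and none of the 11 was placed in a casein gene. The genes were Csn1s1, Csn2, Csn1s2a and Csn1s2b, the mature sequences were of 17 or 18 bases, and 2 of the Csn1s1 matches spanned an exon junction. The 11 precursors had 5 and 21 counts in A5 and A6 and 1121 and 2369 counts in A7 and A8, or 0.538, 2.50, 287 and 470 RPM. They took 9.79% of the member counts of the AGO2 libraries. The largest part of this was 8_43005, predicted in an exon of Slc5a5, with 474 counts in A7 and 1164 in A8. Among the 11 precursors, 3 at the predicted positions chr5:46914323-46914361, chr4:81709283-81709331 and chr10:10169677-10169742 had the letters of Csn1s1, namely 5_35028, 4_31863 and 10_3216. Their sequences follow with the seed in capitals.
5_35028: aCAGAGAGcacuucugac
4_31863: cCUGGCACugcaaguuu
10_3216: uCCUAGACagauucuuuu
X_46740, with letters of Csn1s2a: uUUUCUGUauuguuugu
All 4 of these sequences had 0 or 1 count in a gland library and 71 to 295 counts in each AGO2 library.

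Milk and lipid genes were matched beyond the caseins. A list of 8 such genes, drawn up after the matches had been seen, took 24 precursors, of which 3 were placed in the matched gene. Fasn was matched by 4 distinct sequences from 5 precursors and Scd1 by 4. Of the Scd1 sequences, 19_22514 was placed in an exon of Scd2, a related desaturase, and had 0, 0, 0 and 82 counts in A5 to A8. Such a sequence cannot be assigned to 1 of the genes by its letters.

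Precursors were seldom clustered. After overlapping precursors on the same strand were merged, the 823 precursors formed 804 loci. Of these, 63 loci (7.84%) lay within 10000 bases of another, in 29 clusters. Of these clusters 25 held 2 loci, 3 held 3 and 1 held 4. All precursors of 26 clusters were on the same strand, and 23 clusters lay within a single gene. The clusters at chr1:55425001-55425064 and chr7:123304587-123304655 each held overlapping precursors on opposite strands, which were not merged and count as separate loci. Chromosome 11 held 82 precursors (9.96%), the most of any chromosome.

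The cluster with the most loci lay in Rpl5, which encodes a ribosomal protein and hosts snoRNA. Its 4 precursors 5_33983, 5_33988, 5_33990 and 5_33991 spanned chr5:107901066-107907471, and 3 of them overlapped snoRNA genes. The counts of 5_33988 were 0, 1, 59 and 16 in A5, A6, A7 and A8, and those of 5_33991 were 1, 0, 38 and 1. The other 2 had 0 counts in A7 and 7 and 11 counts in A8.

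A second cluster lay in Wap, the gene of whey acidic protein, a main milk protein of the mouse. It spanned chr11:6636530-6638030 and held 11_7083, 11_7095, 11_7098 and 11_7099, all in an intron on the strand of the gene. The last 3 shared one mature sequence, which was listed once under 11_7098 with 1, 3, 226 and 646 counts. 11_7083 had another sequence and 1, 0, 63 and 5 counts. A further 2 clusters of 3 loci lay in Slc28a3 and in Rps3a1, a ribosomal protein gene that hosts snoRNA. The Slc28a3 members 13_12474, 13_12482 and 13_12504 were counted in A8 alone, with 10, 15 and 12 counts over both arms.

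A mature sequence could belong to several precursors. Such sharing was found for 46 sequences and 98 precursors, with 41 sequences in 2 precursors, 4 in 3 and 1 in 4. The sequence of 4 precursors was that of 11_5787, 9_43671, 13_11431 and 13_12588, which all lay in snoRNA genes, 1 of them in Taf1d, a gene that hosts snoRNA. Its mature arm was listed once, with 20, 22, 28 and 18 counts in A5 to A8. Over both arms the level of 11_5787 was 2.37 and 2.86 RPM in the gland and 7.16 and 3.97 RPM with AGO2. The sequence of 11_6465, 11_6469 and 11_6470 came from genes of U3 snoRNA, with 260, 33, 0 and 4 counts. That of 5_34227, 7_39353 and 12_9123 lay in Ppp1cc, which encodes a catalytic subunit of protein phosphatase 1, and in its pseudogenes, and had 0, 0, 85 and 0 counts. That of 15_14678, X_46936 and X_47525 lay in pseudogenes that match Phb, the prohibitin gene, and had 0, 0, 13 and 0 counts.

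Only 7 members reached 100 RPM in a library. They were 3 in the gland libraries, 11_6623, 3_28325 and 2_23876, and 5 in the AGO2 libraries, 3_28325, 2_24638, 15_15267, 8_43005 and 11_7098. 3_28325 alone reached 100 RPM in all 4 libraries.

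11_6623 had the highest count of all members. Its mature line had 5807 and 3805 counts in the gland and 6 and 90 counts with AGO2, or 624, 453, 1.53 and 17.9 RPM. The gland libraries were high and did not overlap the AGO2 libraries. The mature sequence began 2 bases past the end of the tRNA-Cys gene n-TCgca56 (chr11:97797072-97797143) and ended in 4 u, as seen above in its hairpin, whose first part is the 3′ part of the tRNA.

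2_24638 lay at a tRNA gene as well. Its mature sequence began at base 2 of the tRNA-Asp gene n-TDgtc2 on chromosome 2. It had 771, 566, 454 and 563 counts, or 82.9 and 67.4 RPM in the gland and 116 and 112 RPM with AGO2. The shorter sequence of 4_31859, contained in it, had 149, 146, 69 and 288 counts and lay outside annotated genes.

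3_28325 lay in an intron of Col25a1, which encodes a membrane collagen. It had 1761 and 1671 counts in the gland and 1625 and 1192 counts with AGO2, or 189, 199, 416 and 236 RPM. Its levels were thus of one order in all 4 libraries. Counted from the 5′ end, with the base of the known miRNA first, 3_28325 differed from miR-23a-3p by C10A and C20U over 20 bases and from miR-23b-3p by C10A, A19U and C20U. Its counts were 1.49%, 2.25%, 2.87% and 2.24% of those of miR-23a-3p in A5, A6, A7 and A8. It had 0 star reads and 0 loop reads, a score of 3.5 and a listed estimate of 0 ± 0%.

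Members that resembled known miRNA were chosen after their values had been seen. Over the first 17 bases, 11 members, 3_28325 among them, had at most 1 difference from a known mouse mature sequence and 6 of them had none. All 10 of those that were listed had a gland count, with 2194, 2065, 1692 and 1596 counts together, and with 433, 394, 67 and 404 counts without 3_28325. 7_38551 was equal to the first 17 bases of miR-146a-5p and miR-146b-5p, and had 15, 33, 41 and 290 counts. This was 0.00189%, 0.00388%, 0.0153% and 0.134% of the counts of miR-146b-5p, and 0.205%, 0.295%, 1.72% and 15.1% of those of miR-146a-5p. 13_11333 was equal to miR-3105-5p over 19 bases and had 113, 43, 1 and 17 counts. 4_32689, in introns of Camta1 and Per3, differed from miR-143-3p by A3G and C21G and had 217, 233, 24 and 46 counts, at most 0.0475% of the counts of miR-143-3p. 12_10872 lay antisense to the gene of miR-203 and had 51, 108, 0 and 9 counts.

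15_15267 lay in Rnu12, the gene of U12 snRNA of the minor spliceosome. It had 38 and 15 counts in the gland and 543 and 649 counts with AGO2, or 4.09, 1.79, 139 and 129 RPM. The AGO2 libraries were high and close to each other.

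8_43005 was predicted in an exon of Slc5a5, the sodium iodide symporter, and its letters were also found in the coding sequence of Csn2. It had 3 and 4 counts in the gland and 474 and 1164 counts with AGO2, or 0.323, 0.477, 121 and 231 RPM. 11_7098 in Wap had 0.108 and 0.357 RPM in the gland and 57.8 and 128 RPM with AGO2. Both members were thus found with AGO2 and close to absent from the gland.

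2_23876 and 17_20313 were gland members placed outside annotated genes. The letters of both were found in antisense in annotated transcripts. Genes of tRNA were compared by position and not by letters. 2_23876 had 1251 and 290 counts in the gland and 1 and 4 counts with AGO2. 17_20313 had 646 and 717 counts in the gland and 0 and 29 counts with AGO2. Neither overlapped between the kinds of library.

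The members with the highest scores had modest counts. X_47084 and X_47869, both at 98.6, lay in the pseudogenes Gm4750 and Gm8464, and their shared mature sequence was also found in transcripts of Actb, the gene of beta-actin. It had 1, 0, 198 and 28 mature counts in A5 to A8, and 0, 0, 0 and 2 star counts. 11_5828, at 61.1, lay in an exon of Rpl26, a ribosomal protein gene, and had 2, 0, 0 and 115 mature counts. 15_15172, at 46.4, lay in the coding sequence of Atf4, a transcription factor of the stress response, and had 0, 0, 0 and 38 mature counts and 4 star counts in A8. All 3 sequences were thus counted mainly in 1 AGO2 library.

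Among the 31 precursors with a score of 10 or more, 16 overlapped protein coding exons, 5 lay in introns on the same strand, 4 in pseudogenes, 2 antisense to introns, 2 in a snoRNA gene, 1 in a known miRNA gene and 1 outside genes. The precursor in a known miRNA gene also overlapped the snoRNA gene Snora74a. The mature sequence was found in an annotated transcript in sense for 24 of the 31 precursors. 8_41713, at 28.7, lay in an exon of Lpl, the lipoprotein lipase that takes up fatty acids for milk fat. Its mature arm had 47 counts in A7 and 0 elsewhere, and its star arm had 2 counts in A5 and 18 in A8. 9_43663, at 28.2, lay in a snoRNA gene of Taf1d and was unlike these, with 19 and 18 mature counts and 6 and 6 star counts in A5 and A6.

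AGO2 libraries were compared with gland libraries to ask which small RNA of the gland are bound by AGO2. The edgeR quasi-likelihood test was fitted on all lines that reached 176 counts in any library, with adjustment over these 299 lines, and 22 of them were mature lines of members. At an adjusted p under 0.05, 12 members were higher with AGO2 and 3 were lower, against 15.4% of all lines higher and 12.4% lower. Of the 22 members, 14 passed the filter through AGO2 libraries alone, 5 through gland libraries alone and 3 through both. Passing the filter through one kind of library alone favours a difference in that direction. These counts and the median log2 fold change of 6.52, against -0.12 over all lines, are thus not read as a property of the members. Both AGO2 libraries lay above both gland libraries for 16 members and below for 5, and this held for 31.1% and 42.1% of all lines. With a filter of 10 counts, 579 members were among 1112 lines tested, and 11 were higher and 3 lower, against 3.24% and 3.42% of all lines.

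The 3 lower members had passed the filter through the gland libraries alone. 11_6623 had a log2 fold change of -5.58 ± 0.96 (SE, edgeR adjusted p = 0.00038), 2_23876 of -7.05 ± 1.28 (edgeR adjusted p = 0.000537) and 17_20313 of -4.52 ± 1.30 (edgeR adjusted p = 0.012). The calls of 2 of them were lost with a gland library left out and kept their direction. Without A5, 2_23876 had a log2 fold change of -5.82 (edgeR adjusted p = 0.317) and 17_20313 of -4.70 (edgeR adjusted p = 0.0672). Without A6, 17_20313 had a log2 fold change of -4.37 (edgeR adjusted p = 0.124).

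The higher members included 8_43005 with a log2 fold change of 8.89 ± 0.98 (SE, edgeR adjusted p = 2.09e-06), 11_7098 of 8.72 ± 1.23 (edgeR adjusted p = 6.63e-05) and 15_15267 of 5.66 ± 0.88 (edgeR adjusted p = 0.000213). 7_41166, contained in the letters of 11_7098, had 0, 2, 135 and 500 counts and a log2 fold change of 9.13 (edgeR adjusted p = 0.000366). Its ratio of summed counts over depth was 628, with a counting interval of 173 to 5193 at 95%. 19_21922 in an exon of Pcx, which encodes pyruvate carboxylase, had 1, 0, 73 and 176 counts and a ratio of 492 (87.5 to 19517), and X_46740 a ratio of 723 (129 to 28651). X_47084 had a ratio of 447 (79.4 to 17721). 5_34519, in a gene copy of the 7SK RNA that holds back transcription elongation, had 0, 2, 4 and 191 counts and a ratio of 193 (52.6 to 1603). These intervals are wide because they rest on 1 or 2 gland counts, and 3 of these calls were lost under other settings with log2 fold changes of 6.39 or more. The edgeR adjusted p was 0.097 for 19_21922 and for X_47084 without A5 and 0.125 for both without A6, and for 5_34519 it was 0.343 and 0.153. With lines of 1 count or more, the edgeR adjusted p was 0.0507 for 19_21922, 0.0767 for X_47084 and 0.256 for 5_34519. For 5_34519 it was also 0.137 with a filter of 10 counts and 0.0719 with library totals.

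For 4 of the higher members both gland libraries were at 0. Against a floor of 3 counts in each gland library, 4_31863 was at least 106-fold higher with AGO2, 10_3216 at least 117-fold, 8_42741 at least 130-fold and 5_35028 at least 134-fold. 8_42741, outside annotated genes, had 1 count in A7 and 446 in A8, so that its level rested on A8. Of the 12 higher members, 7 exceeded the filter in A8 alone. Without A8, 5 members were higher.

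The remaining 7 tested members did not pass the test. 3_28325 had a log2 fold change of 0.88 ± 0.63 (SE, edgeR adjusted p = 0.284) and 2_24638 of 0.76 ± 0.65 (edgeR adjusted p = 0.362), although the AGO2 libraries lay above the gland libraries for both. The paper, with an earlier version of DESeq2, lists 2_24638 as significantly enriched with AGO2. In the DESeq2 fit made here 2_24638 did not pass (DESeq2 adjusted p = 0.280), and the reason for the difference was not tested. 7_38551, with the letters of miR-146, had a log2 fold change of 3.79 ± 1.44 (edgeR adjusted p = 0.0555). It passed with DESeq2 (adjusted p = 0.00881) and in edgeR without A7 (adjusted p = 2.93e-05). 11_6788 in the snoRNA gene Snord104 had 225, 154, 62 and 287 counts, and its gland and AGO2 libraries overlapped (log2 fold change 0.97 ± 1.06, edgeR adjusted p = 0.479). The summed epithelial markers were higher and the summed contractile markers lower with AGO2, with single markers that went the other way or overlapped as given above, and their part in these differences was not tested.

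**Figure D5:**
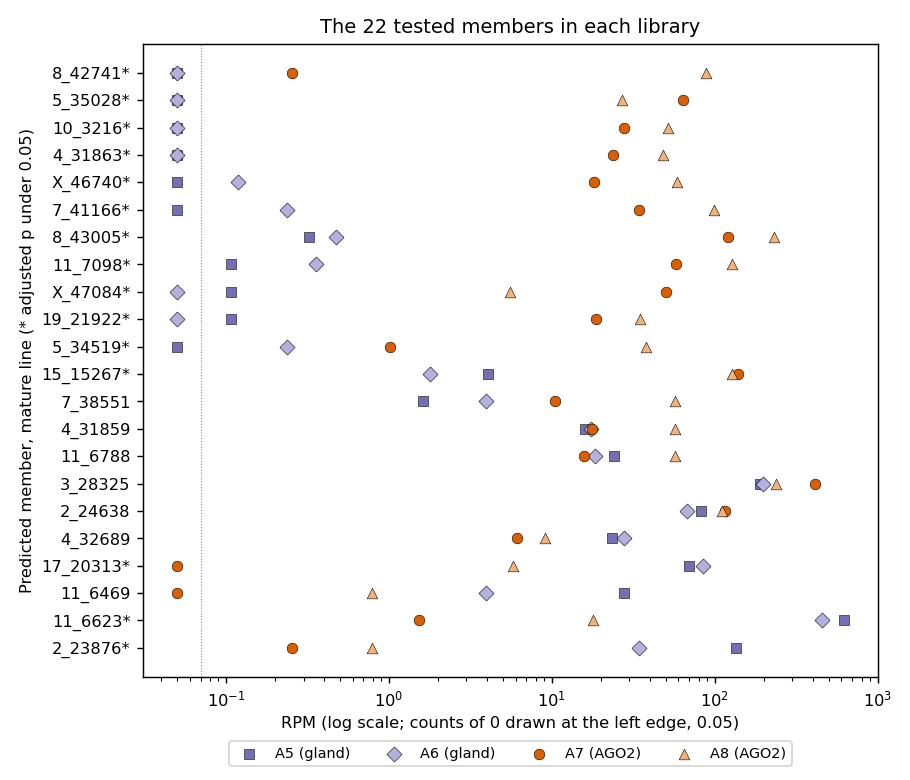
Level of the 22 tested members in the 4 libraries. The x axis gives RPM on a log scale, with counts of 0 drawn at the left edge; squares and diamonds are gland libraries A5 and A6, circles and triangles AGO2 libraries A7 and A8, and an asterisk marks an edgeR adjusted p under 0.05. The 12 higher members sit at 4.09 RPM or less in the gland, and 3_28325 and 2_24638 lie at 67.4 RPM or above in all 4 libraries.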

How the data were processed

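Small RNA was poly(A)-tailed, primed with oligo(dT) and sequenced. Poly-A stretches and reads outside 17 to 28 nt were removed by the authors, who mapped the rest to GRCm38 and predicted precursors with miRDeep2. The deposited list gives for each precursor a score, which miRDeep2 made as a log-odds, pooled counts of reads and, as other text, the estimated chance of a true positive. The methods state that predictions with a score above 0 were added to miRBase 20 for counting, and the quantification as deposited holds unnormalised counts for every mature line and library. A second deposited column of normalised counts was not used.

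Members were matched by provisional name. The members, lists and rules were chosen with earlier results of these data known. RPM were taken over the summed counts. AGO2 and gland libraries were compared with edgeR 4.0.16 in R 4.3.3 (TMM, quasi-likelihood F test, Benjamini-Hochberg over all lines that reached 176 counts in any library). The SE is the log2 fold change divided by the square root of F. The procedure was tested on simulated data. Shares were compared with an exact permutation test. With 2 libraries per kind, which may share mice, p-values measure the spread between these libraries. Alternatives were DESeq2 1.42.0, its size factors, library totals, lower filters and each library left out. Positions refer to GRCm38 and were set against GENCODE genes and RefSeq tRNA genes. Known hairpins came from RefSeq and known mature sequences from the quantification. Hairpins were folded with RNAfold 2.7.2. Tables were made in Python 3.11.15 (pandas 2.3.3, NumPy 2.4.6, SciPy 1.17.1) and figures in matplotlib 3.10.9. Named members were those at 100 RPM in a library, the 10 largest called fold changes each way, the 3 highest scores, the 3 most counted of each class, the members of the 3 most shared sequences (4 sequences were shared by 3 precursors, and all were kept), the members of the 2 clusters with most loci (ties kept), and those the study names. Others named in the text were chosen after their values were seen.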

Additional observations from a re-analysis of the deposited data

How the results depend on the processing

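Calls over all lines were 46 higher and 37 lower with AGO2. With 1 count or more in a library as the filter, 29 lines were higher. Leaving out 1 library gave 31 to 62 higher and 21 to 33 lower lines, 5 to 12 higher and 1 to 4 lower members, and the lowest counts came without A8 for higher and without A5 for lower members. Left out in turn, a lone library of a kind was assumed to vary like the others. Of 186 comparisons of a tested member under another setting, 166 kept their direction and side of the threshold, 14 lost the call, 5 gained it and 1 changed sign, namely 11_6788, whose log2 fold change ran from -0.18 without A8 to 1.96 without A7. In the gland, 112 precursors were counted, against 37 with 10 or more counts, 59 in both libraries and 76 to 95 with 1 library left out. With AGO2, 762 were counted, against 126 in both libraries and 432 to 456 with 1 left out. The difference in share ran from 0.137 to 0.474 percentage points with 1 library left out. It was 0.205 for scores of 1 or more and 0.302 for mature arms alone. For scores of 5 or more, whose gland values rested on 11_6623, it was 0.00672. With a limit of 2 between the lower classes of score, they held 490 and 240 precursors. Clusters took 20 loci at 1000 bases, 150 at 50000 bases and 98 without merging. A run of 4 u ended 12 mature sequences, and 223 members had bases 2 to 7 of a known seed. The cause of these shifts was not tested, other than that fewer libraries or another definition were used. No paired analysis was possible because the labels give no number that ties an AGO2 library to a gland library. Low counts in A5 and A6, with limits of 0.323 and 0.357 RPM, bound what can be said of members seen with AGO2 alone.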
